A study of Ovis aries and Bos taurus with 15 samples.

Results

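The heat shock protein and DNAJ genes encode the chaperones and co-chaperones that fold, hold and refold proteins, here mainly those of the cytosol and mitochondria. They were taken here as the probe sets whose only gene symbol begins with HSP90, HSPA, HSPB, HSPD, HSPE, HSPH, DNAJA, DNAJB or DNAJC. The endoplasmic reticulum (ER) genes HSPA5, HSP90B1, DNAJB9 and DNAJC3 were left out, but the rule kept other ER genes such as DNAJB11, DNAJC10 and DNAJC18. This gave 43 genes read by 68 probe sets, of 9155 genes read by 13292 probe sets that carry 1 symbol. A single probe set read 27 of the genes, and the other 16 genes shared 41 probe sets. DNAJA2, DNAJB4 and DNAJC2 had no probe set with that symbol alone. The prefix also brought in HSPBP1 and HSPBAP1, which are not small heat shock proteins.

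RNA was measured on 15 Affymetrix arrays that carry bovine probes, 1 array per sample and 5 arrays per group. The first group was ovine cells labelled PAEC that were given 5 µM GW9662 for 24 h. GW9662 blocks the nuclear receptor PPARγ irreversibly. That receptor drives genes of lipid handling and damps inflammatory genes in the vessel wall. The second was bovine cells labelled BAEC and called a control, for which the labels name no treatment of their own. The third was ovine PAEC given the DMSO vehicle. All cells were grown in DMEM with 10% FBS, and no genotype, age, passage or number of animals is given. The labels do not say whether the 5 replicates of a group are separate cultures or animals. The p-values therefore reflect the spread among these samples alone, and that spread may be technical.

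Hsp70 proteins bind unfolded stretches of a client protein and let go of them in a cycle driven by ATP. J-domain proteins, the DNAJ families, bring clients to Hsp70 and start ATP hydrolysis, and nucleotide exchange factors such as the Hsp110 proteins reset the cycle. Hsp90 acts later and matures kinases and nuclear receptors. In endothelial cells it also binds the nitric oxide synthase NOS3. Small heat shock proteins hold unfolding proteins without ATP, and HSPB1 also acts on the actin filaments that shape the endothelial barrier. The transcription factor HSF1 raises many of these genes together when unfolded protein builds up.

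Values are log2 expression values, and the arrays carry no read depth, so their number limits the precision. The values do not record signal over background. A group mean under 3, below the medians of all 15 arrays (3.18 to 3.27), is called dim here. For 5 genes, DNAJC5, DNAJC6, DNAJC22, DNAJC27 and HSPB3, every group mean was dim, as it was for 12 of the 68 probe sets. Sheep RNA may also bind bovine probes less well than bovine RNA does, which was not tested. The endothelial cadherin CDH5 averaged 11.35 in GW9662, 11.64 in bovine control and 11.47 in ovine vehicle, while VWF was dim throughout. Of 14 measured endothelial markers 2 were dim in GW9662, 1 in bovine control and 3 in ovine vehicle. Summed over the 14, the values ran from 116 to 119 in GW9662, from 123.1 to 124.7 in bovine control and from 116.6 to 118.2 in ovine vehicle. Of 6 smooth muscle markers 4 were dim in every group, but their sums were 20.5 to 21.0 in GW9662, 23.4 to 24.3 in bovine control and 19.6 to 20.9 in ovine vehicle. TAGLN among them averaged 7.16 in GW9662, 9.0 in bovine control and 7.18 in ovine vehicle. Of 6 fibroblast markers 4 were dim in each group. The 6 summed to 31.0 to 31.3 in GW9662, 31.6 to 31.8 in bovine control and 30.9 to 31.2 in ovine vehicle. All 5 epithelial and 3 erythroid markers were dim in each group. The leukocyte marker CD14 averaged 6.72 in GW9662, 2.27 in bovine control and 6.69 in ovine vehicle, while the other 4 leukocyte markers measured were dim. The part of these cells in the results below was not tested. In RNA from whole cultures, fewer cells of a type and less RNA per cell cannot be told apart.

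The gap between the 3′ and the 5′ probe sets of 6 control transcripts, which reflects RNA quality, was smaller in the GW9662 and bovine control groups than in the ovine vehicle group. It averaged 0.956 ± 0.074 log2 units in GW9662 against 1.18 ± 0.085 in ovine vehicle (SD, n = 5 each; two-sided exact permutation test, p = 0.00794, the lowest value this design allows). In bovine control it averaged 0.881 ± 0.043 (SD, n = 5), also without overlap with ovine vehicle (exact permutation p = 0.00794). Its part in the results was not tested apart from a fit that holds it as a covariate, given below. Replicate 1 of the ovine vehicle group stood apart, with a correlation across all probe sets as low as 0.994 to an array of its own group. The mean over the 68 member probe sets ran from 6.29 to 6.35 on the GW9662 arrays and from 6.19 to 6.33 on the ovine vehicle arrays, or from 6.26 without that replicate. On the bovine control arrays it ran from 6.25 to 6.26.

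The first comparison asked which of these genes respond to PPARγ antagonism in ovine endothelial cells. None of the 68 probe sets passed an adjusted p of 0.05 (limma with Benjamini-Hochberg adjustment over 24016 probe sets), where 0.183% of all probe sets did. At an unadjusted p under 0.05 there were 17, of which 11 were higher and 6 lower with GW9662, or 25% against 21.4% of all probe sets (6.87% higher and 14.5% lower). Differences were small. For the brightest probe set of each gene they lay between -0.30 and 0.32, with 22 above 0 and 21 below, and 26 of the 43 genes were within 0.1 of 0. The median over the 68 probe sets was 0.02, and over all probe sets -0.02. The GW9662 and vehicle arrays did not overlap in 5 of the 68, 3 higher and 2 lower, where 14.6% of all probe sets did not overlap (1.93% higher and 12.7% lower). Both lower ones (DNAJC22 and HSPB3) were dim. Among probe sets with a mean of 3 or more over the 15 arrays, 3 of 52 members (5.77%) did not overlap, against 5.41% of all. In a fit over all 15 arrays, 2 of the 68 passed, or 2.94% against 0.987% of all probe sets, and these 2 are described below. No member probe set passed in any other setting, including without ovine vehicle replicate 1. With the 3′ to 5′ gap as a covariate, 4 of the 68 had an unadjusted p under 0.05 by limma, 2 higher and 2 lower. Over all 24016 probe sets 1312 did, against 5141 without it. The member median was then -0.004, and 18 of 31 genes named for GW9662 shifted by more than the SD within groups. The gap does not overlap between these groups (0.853 to 1.04 with GW9662, 1.07 to 1.30 with vehicle).

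**Figure D1:**
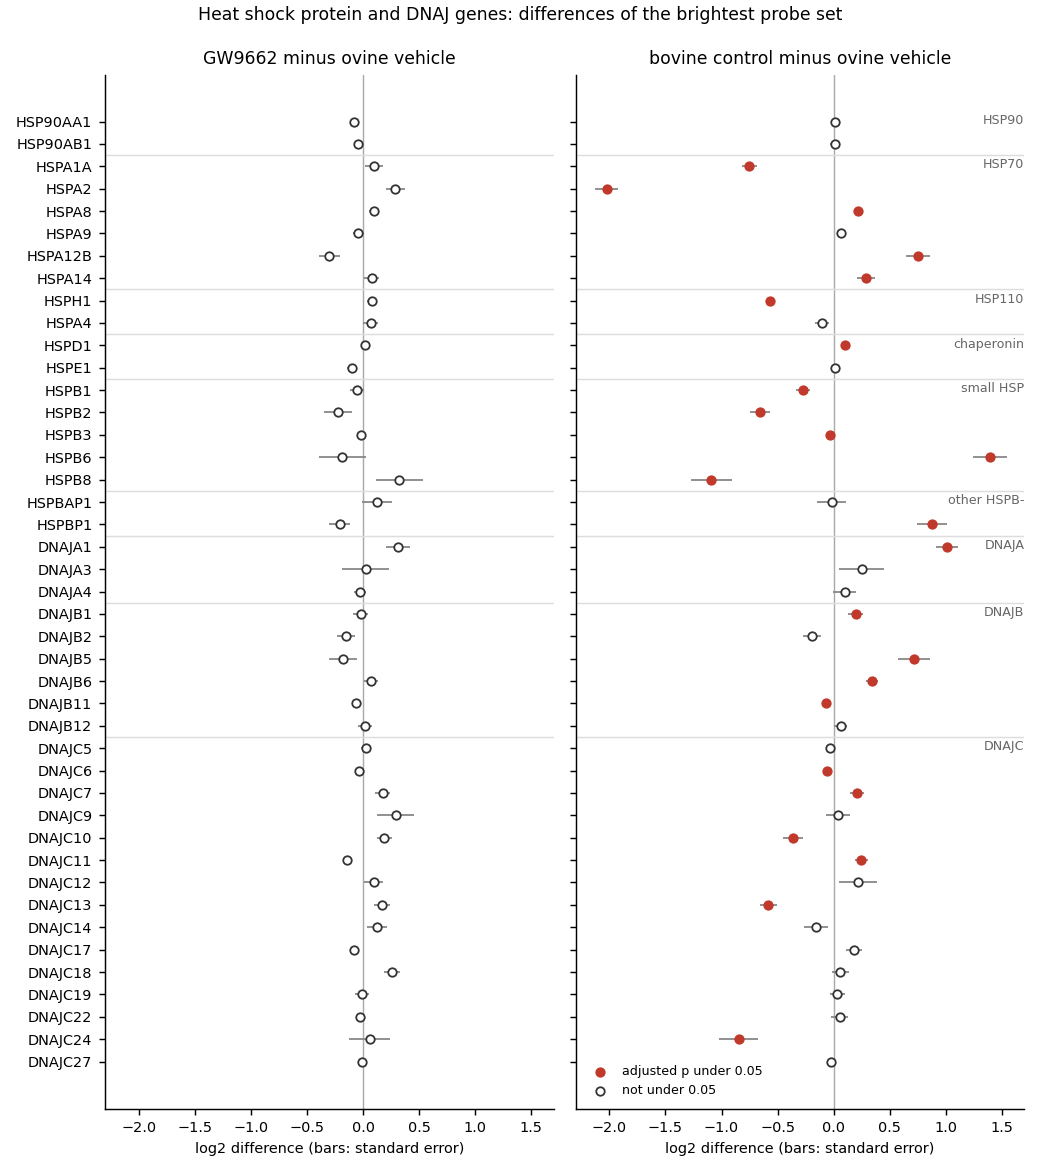
Log2 differences of the brightest probe set of each of the 43 genes, GW9662 minus ovine vehicle on the left and bovine control minus ovine vehicle on the right, with bars for the standard error and n = 5 arrays per group. Filled red points have an adjusted p under 0.05: none for GW9662, 24 for bovine control, where HSPA2 at -2.02 and HSPB6 at 1.39 lie at the ends.

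Neither Hsp90 gene passed the test with GW9662. HSP90AA1, the stress-inducible cytosolic Hsp90, read 12.24, 12.32, 12.42, 12.45 and 12.36 with GW9662 against 12.48, 12.43, 12.41, 12.43 and 12.42 with vehicle. The GW9662 arrays spread more widely and 3 of the 5 lay under the vehicle range, while the other 2 lay inside it, and the difference was -0.08 ± 0.037 (SE; adjusted p = 0.247). Its second probe set gave -0.17 (adjusted p = 0.299). HSP90AB1, the constitutive form, differed by -0.04 (adjusted p = 0.44).

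Among the brightest probe sets of the Hsp70 genes, only that of HSPA2 had arrays that did not overlap. HSPA2 is an Hsp70 best known for its need in sperm formation in mice. It read 7.21, 7.29, 7.30, 7.38 and 7.22 with GW9662 against 6.68, 6.98, 6.98, 7.16 and 7.15 with vehicle. Every GW9662 array lay above every vehicle array, by little against the 2 highest of them, and the difference of 0.29 ± 0.088 (SE) had an adjusted p of 0.217. HSPA8, the constitutive Hsc70 that also uncoats clathrin vesicles, differed by 0.10 ± 0.044 (SE; adjusted p = 0.235). HSPA1A, the stress-inducible Hsp70, differed by 0.10 ± 0.081 (SE; adjusted p = 0.424) in its brightest probe set, and the other 5 ranged from -0.03 to 0.15. The mitochondrial Hsp70 HSPA9 differed by -0.05 (adjusted p = 0.458).

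HSPA12B is a distant Hsp70 relative found mostly in endothelial cells, where it takes part in vessel growth. It read 4.31, 4.26, 4.08, 4.23 and 4.05 with GW9662 against 4.76, 4.53, 4.24, 4.47 and 4.46 with vehicle. The vehicle arrays were higher apart from replicate 3, which lay inside the GW9662 range, and the difference was -0.30 ± 0.093 (SE; adjusted p = 0.217). HSPA14, an Hsp70 that works at the ribosome, depended on the probe set. The brightest differed by 0.08 (adjusted p = 0.444). The second read 5.18, 5.25, 5.18, 5.26 and 5.35 with GW9662 against 4.75, 4.53, 4.99, 4.91 and 4.88 with vehicle. These arrays did not overlap, and the difference of 0.43 ± 0.081 (SE; adjusted p = 0.104) had the smallest p of the 68. The 15-array fit gave it an adjusted p of 0.049.

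HSPH1, the stress-inducible Hsp110, read 11.39, 11.31, 11.41, 11.48 and 11.41 with GW9662 against 11.35, 11.29, 11.21, 11.36 and 11.40 with vehicle in its brightest probe set. These arrays overlapped, with a difference of 0.08 ± 0.041 (SE; adjusted p = 0.266). A dimmer HSPH1 probe set read 6.84, 7.34, 6.29, 6.59 and 7.11 with GW9662 against 6.12, 6.0, 6.26, 6.04 and 6.14 with vehicle. Every GW9662 array was above every vehicle array there, over a range of more than 1 log2 unit, and the difference of 0.72 ± 0.18 (SE; adjusted p = 0.18) was the largest of the 68. The remaining 2 HSPH1 probe sets differed by 0.19 and -0.00. HSPA4, a constitutive Hsp110, differed by 0.07 (adjusted p = 0.506).

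Of the mitochondrial chaperonin, the folding chamber subunit HSPD1 differed by 0.02 (adjusted p = 0.649) and its lid HSPE1 by -0.10 (adjusted p = 0.237). Of the small heat shock proteins, HSPB1 differed by -0.05 (adjusted p = 0.566). HSPB8, which works with BAG3 to send misfolded proteins to autophagy, read 4.76, 4.85, 5.33, 5.17 and 4.70 with GW9662 against 4.12, 5.26, 4.58, 4.54 and 4.71 with vehicle. Vehicle replicate 2 lay among the highest GW9662 arrays, and the difference of 0.32 ± 0.21 (SE; adjusted p = 0.324) was the largest positive one among the brightest probe sets. HSPB6, best known from muscle, differed by -0.19 (adjusted p = 0.548) and HSPB2 by -0.23 (adjusted p = 0.276). HSPBP1, a nucleotide exchange factor of Hsp70, differed by -0.21 ± 0.091 (SE; adjusted p = 0.231).

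DNAJA1, a farnesylated J-protein partner of Hsp70, read 8.29, 8.14, 8.41, 8.38 and 8.06 with GW9662 against 7.83, 7.70, 7.92, 8.08 and 8.21 with vehicle. Vehicle replicates 4 and 5 reached into the GW9662 range, and the difference was 0.31 ± 0.11 (SE; adjusted p = 0.217). DNAJB1, the stress-inducible Hsp40, differed by -0.02 (adjusted p = 0.828), and DNAJB6, which keeps polyglutamine proteins from aggregating, by 0.07 (adjusted p = 0.466). The ER J-protein DNAJB11, which the rule kept, differed by -0.06 (adjusted p = 0.217).

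The smallest p among the brightest probe sets belonged to DNAJC11, a mitochondrial protein of the complex that shapes the cristae. It read 6.49, 6.44, 6.42, 6.45 and 6.60 with GW9662 against 6.61, 6.62, 6.62, 6.57 and 6.69 with vehicle. The vehicle arrays were higher except that GW9662 replicate 5 lay above vehicle replicate 4, and the difference was -0.14 ± 0.036 (SE; adjusted p = 0.186). DNAJC7, a J-protein that binds both Hsp70 and Hsp90, differed by 0.18 ± 0.068 (SE; adjusted p = 0.218) in its brightest probe set. Its second read 7.49, 7.73, 7.48, 7.57 and 7.31 with GW9662 against 6.93, 6.98, 7.06, 7.0 and 7.40 with vehicle. Only vehicle replicate 5 reached the GW9662 range, with a difference of 0.44 ± 0.1 (SE; adjusted p = 0.166, and 0.0427 in the 15-array fit).

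DNAJC18, a J-protein of the ER membrane, read 8.51, 8.35, 8.47, 8.47 and 8.61 with GW9662 against 8.22, 8.12, 8.07, 8.38 and 8.35 with vehicle. The groups met at vehicle replicates 4 and 5, and the difference was 0.26 ± 0.071 (SE; adjusted p = 0.213). DNAJC10, an ER disulfide reductase, differed by 0.19 (adjusted p = 0.217), the endosomal DNAJC13 by 0.17 (adjusted p = 0.229) and DNAJC17, a splicing-associated protein, by -0.08 (adjusted p = 0.23). The mitochondrial DNAJC19 and DNAJA3 differed by -0.01 and 0.02, and DNAJC12, which helps fold aromatic amino acid hydroxylases, by 0.09. DNAJB5 and DNAJC24 differed by -0.18 and 0.06, and the dim DNAJC5 and DNAJC6, which serve synaptic vesicles and clathrin uncoating in neurons, by 0.03 and -0.04. The remaining 7 genes not described one by one (DNAJA4, DNAJB2, DNAJB12, DNAJC9, DNAJC14, DNAJC27 and HSPBAP1) lay between -0.15 and 0.29, with no adjusted p under 0.265.

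Of 10 measured genes commonly raised by HSF1 (HSPA1A, HSPA8, HSPH1, HSP90AA1, HSP90AB1, HSPB1, HSPD1, HSPE1, DNAJA1 and DNAJB1), none was called with GW9662 by limma and 1, DNAJA1, had an unadjusted p under 0.05. Over all genes those shares were 0.218% and 20.1%. The differences of these 10 were positive in 5 and negative in 5, with a median of -0.00 against -0.01 over the brightest probe sets of all 9155 genes. HSF1 itself averaged 6.31 ± 0.17 with GW9662 and 6.62 ± 0.20 with vehicle (SD, n = 5 each), a difference of -0.32 (adjusted p = 0.217), and its second probe set gave -0.02 (adjusted p = 0.416). Of 42 further genes of the pathway, co-chaperones and regulators together with the cytosolic chaperonin TRiC and prefoldin, none was called by limma, against 0.218% of all genes, and 9 had an unadjusted p under 0.05, 4 higher and 5 lower, where 20.1% of all genes did. The smallest adjusted p among them was 0.138, for NUDCD3, an Hsp90 co-chaperone that stabilises dynein, at -0.24. The ER genes left out by the rule were not called either, and DNAJB9 had the largest difference of the 4 at 0.22 (adjusted p = 0.208).

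The second comparison set the bovine control cells against the ovine vehicle cells. It shares its 5 vehicle arrays with the first. Species, cell source, the vehicle and the match to the probes differ together here and cannot be told apart. Of the 68 probe sets 34 passed the adjusted p of 0.05 by limma, or 50%, against 45.2% of all probe sets (15.6% higher and 29.6% lower). They were 16 higher and 18 lower in bovine cells, and 18 and 13 when each array was centred on its median. By brightest probe set, 24 of the 43 genes were called, 12 in each direction, against 49.2% of all genes (21.9% higher and 27.4% lower). In this fit the share of members called was near the background. It stood further above with arrays centred (45.6% against 26.9% of all probe sets) and the second quantile normalisation (41.2% against 28.3%). The replicate block gave 39.7% against 22.5%, and leaving out dim probe sets gave 52.8% against 50.5%. Of the 24 called genes 4 differed by more than 2-fold, against 611 of the 4508 called among all 9155 genes. Of these 4, HSPA2 and HSPB8 were lower and HSPB6 and DNAJA1 higher in bovine cells. The median difference over the 68 was 0.00, and over all probe sets -0.03. Bovine and vehicle arrays did not overlap in 33 of the 68, 12 higher and 21 lower, where 53% of all probe sets did not overlap (12.5% higher and 40.5% lower). At a mean of 3 or more over the 15 arrays, 24 of 52 member probe sets (46.2%) did not overlap, against 42.6% of all.

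When that 3′ to 5′ gap entered as a covariate, in a fit chosen after the data were seen, 7 of the 68 probe sets passed, or 10.3% against 6.67% of all probe sets. They were those of HSPA2, HSPH1, DNAJC13, HSPA12B and HSPBP1 and 2 of HSPA1A. The brightest probe set of HSPA1A and those of the other 5 genes passed in every setting run. The other 27 calls were lost in that fit, whose covariate does not overlap between the groups (0.843 to 0.942 in bovine control, 1.07 to 1.30 in ovine vehicle). Of these 27 differences 11 were as large or larger with the same sign, 12 were smaller with the same sign and 4 turned sign, while their standard errors were 1.69 to 2.84 times those without the covariate. HSPB6 stood at 1.68 (adjusted p = 0.055), HSPB8 at -1.36 (adjusted p = 0.195) and DNAJA1 at 0.99 (adjusted p = 0.0808) in it, while DNAJB5 stood at 0.17 (adjusted p = 0.975).

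**Figure D2:**
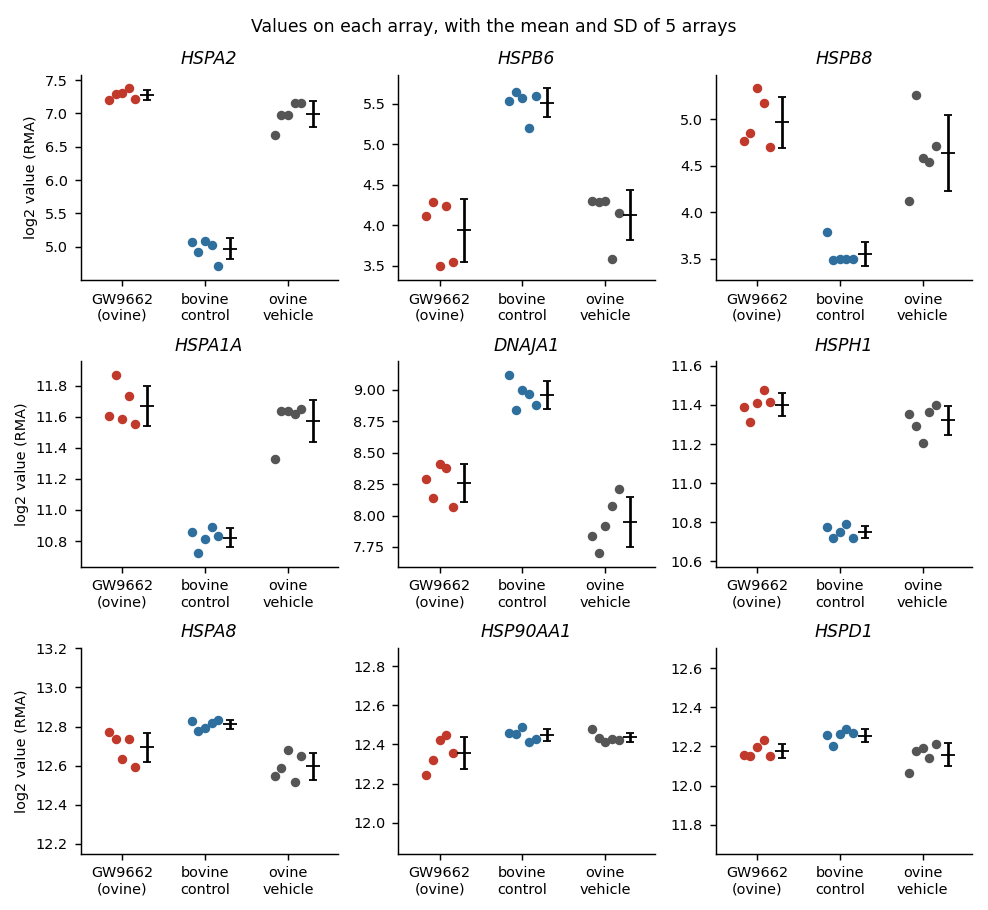
Log2 values of the brightest probe sets of 9 members on each array, in columns for GW9662, bovine control and ovine vehicle, with the mean and SD of 5 arrays beside the points. The bovine control arrays lie apart from both ovine groups for HSPA2, HSPB6, HSPB8, HSPA1A, DNAJA1 and HSPH1, while those of HSP90AA1 lie within 12.41 to 12.49 against 12.41 to 12.48 for vehicle.

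Neither Hsp90 gene passed the test between the cells. HSP90AA1 read 12.46, 12.45, 12.49, 12.41 and 12.43 in bovine control cells against the vehicle values of 12.41 to 12.48, a difference of 0.01 ± 0.018 (SE; adjusted p = 0.55). A second quantile normalisation brought it to 0.08 (adjusted p = 0.0357). HSP90AB1 differed by 0.01 ± 0.044 (SE; adjusted p = 0.792).

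HSPA2 differed most of all members. It read 5.08, 4.93, 5.09, 5.03 and 4.71 in bovine cells against 6.68, 6.98, 6.98, 7.16 and 7.15 in ovine vehicle cells. The arrays lay far apart, and HSPA2 fell by 2.02 ± 0.11 log2 units (SE; adjusted p = 8.58e-07), or to 0.246 of the vehicle signal. HSPA12B was the reverse, at 5.34, 5.36, 5.39, 5.14 and 4.99 in bovine cells against 4.76, 4.53, 4.24, 4.47 and 4.46 in ovine vehicle cells. It was higher on every bovine array, by 0.75 ± 0.11 (SE; adjusted p = 0.000646). HSPA8 read 12.83, 12.78, 12.79, 12.82 and 12.83 in bovine cells against 12.55, 12.59, 12.68, 12.52 and 12.65 in ovine vehicle cells, a small difference of 0.21 ± 0.032 (SE; adjusted p = 0.000809) without overlap. HSPA14 was higher by 0.29 (adjusted p = 0.0224) and by 0.70 (adjusted p = 0.00103) in its 2 probe sets. The second quantile normalisation ended the call of the brighter one (adjusted p = 0.0564). HSPA9 differed by 0.06 (adjusted p = 0.128), and by 0.10 (adjusted p = 0.0495) with arrays centred. Its second probe set, dim in bovine cells, gave -0.08 (adjusted p = 0.045), which was lost without any 1 of 8 of the 10 arrays, all but vehicle replicates 3 and 5 (adjusted p up to 0.0879). It was also lost in every other setting but the 15-array fit (adjusted p up to 0.217 without the covariate).

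HSPA1A showed opposite calls from its own probe sets. The brightest read 10.86, 10.72, 10.81, 10.89 and 10.83 in bovine cells against 11.33, 11.64, 11.64, 11.62 and 11.65 in ovine vehicle cells. Bovine arrays were lower throughout, by 0.75 log2 units (-0.75 ± 0.064, SE; adjusted p = 2.18e-05). Another 3 probe sets were also lower, at -1.10, -0.73 and -0.43 (adjusted p = 3.31e-06, 0.000133 and 0.00854). One more read 8.56, 8.42, 8.54, 8.59 and 8.49 in bovine cells against 7.01, 7.52, 7.51, 7.16 and 7.42 in ovine vehicle cells. That probe set was higher on every bovine array, by 1.20 ± 0.1 (SE; adjusted p = 2.1e-05), and the last, a dim one, was not called (0.18, adjusted p = 0.0816). The annotation places the 6 under 2 gene IDs with the same symbol. The brightest and the one at -1.10 share an ID, and the higher one shares the other ID with lower ones. The called probe sets oppose each other, so the direction for HSPA1A is uncertain. Whether these probe sets tell near-identical Hsp70 gene copies apart was not tested. No other member had called probe sets in opposite directions.

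**Figure D3:**
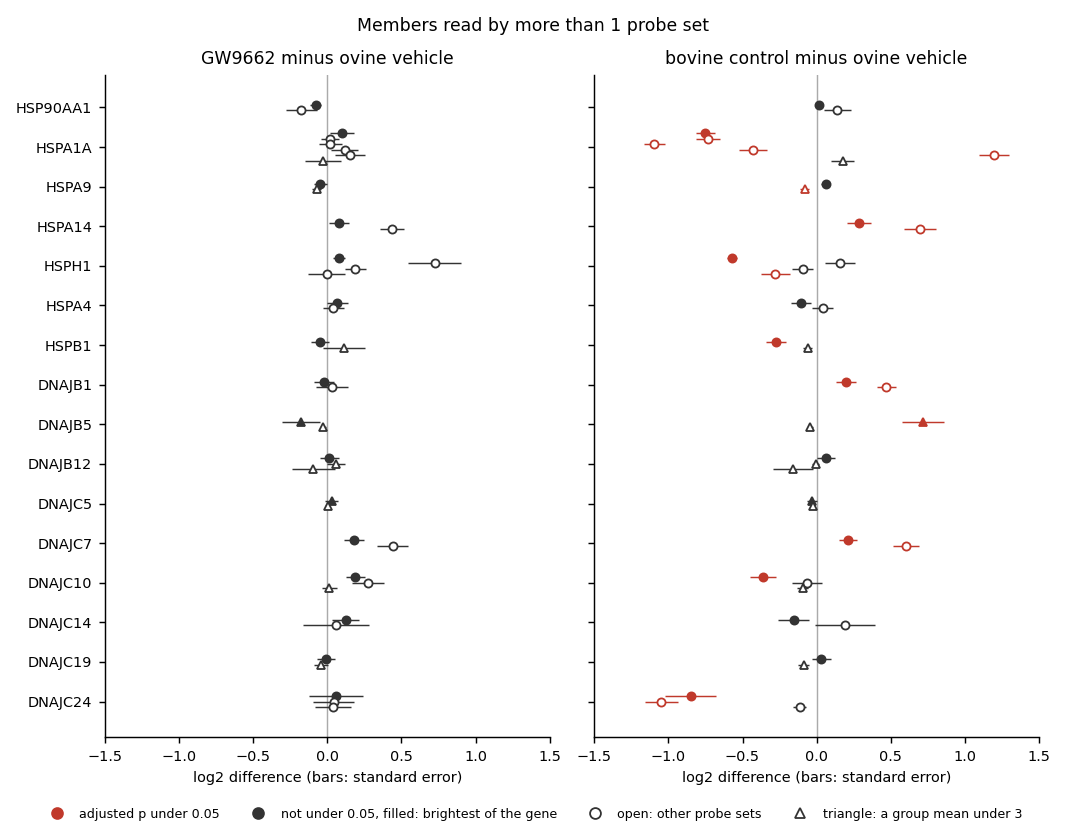
Log2 differences of every probe set of the 16 genes read by more than 1, GW9662 minus ovine vehicle on the left and bovine control minus ovine vehicle on the right, with bars for the standard error (n = 5 arrays per group). Red marks an adjusted p under 0.05, filled points the brightest probe set of a gene and triangles those with a group mean under 3. For HSPA1A on the right, 4 red points lie between -1.10 and -0.43 and 1 at 1.20.

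HSPH1 read 10.77, 10.72, 10.75, 10.79 and 10.72 in bovine cells against 11.35, 11.29, 11.21, 11.36 and 11.40 in ovine vehicle cells. Each group was tight and they did not overlap, with a difference of -0.57 ± 0.035 (SE; adjusted p = 2.6e-06). A dimmer probe set was lower by 0.28 log2 units (-0.28, adjusted p = 0.0456), a call that was lost without any 1 of 8 of the 10 arrays, all but vehicle replicates 1 and 4 (adjusted p up to 0.0941), and with arrays centred (adjusted p = 0.127), the second quantile normalisation (adjusted p = 0.0941) and the replicate block (adjusted p = 0.117). The other 2 gave 0.16 and -0.09 and were not called. Without bovine replicate 5 the last of these was called at -0.16 (adjusted p = 0.0221). HSPA4 differed by -0.11 (adjusted p = 0.2), and by -0.16 (adjusted p = 0.0299) without vehicle replicate 4.

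The chaperonin subunit HSPD1 read 12.26, 12.20, 12.26, 12.29 and 12.27 in bovine cells against 12.07, 12.18, 12.19, 12.14 and 12.21 in ovine vehicle cells. Only bovine replicate 2 lay inside the vehicle range, and the difference was 0.10 ± 0.029 (SE; adjusted p = 0.0274). The call was lost without bovine replicate 1, 3, 4 or 5 or vehicle replicate 4 (adjusted p up to 0.0605), and when dim probe sets were left out (adjusted p = 0.109) or the replicate block was fitted (adjusted p = 0.0788). HSPE1, its partner, differed by 0.01 (adjusted p = 0.805).

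All 5 measured small heat shock proteins were called, HSPB6 higher and HSPB1, HSPB2, HSPB3 and HSPB8 lower in bovine cells, where 21.9% of all genes were higher and 27.4% lower, and HSPB3 was dim with a difference of -0.03. HSPB6 read 5.54, 5.65, 5.58, 5.20 and 5.59 in bovine cells against 4.30, 4.29, 4.30, 3.58 and 4.15 in ovine vehicle cells. Bovine arrays were higher throughout, by 1.39 ± 0.15 (SE; adjusted p = 0.000112), or 2.62-fold. HSPB8 read 3.78, 3.48, 3.49, 3.49 and 3.50 in bovine cells against 4.12, 5.26, 4.58, 4.54 and 4.71 in ovine vehicle cells. The bovine arrays were low and close together while the vehicle arrays spread over more than 1 log2 unit, and the difference was -1.09 ± 0.18 (SE; adjusted p = 0.00163). HSPB1 lay between 11.44 and 11.67 on the bovine arrays, just under the 11.69 to 11.95 of the vehicle arrays, and differed by -0.27 ± 0.066 (SE; adjusted p = 0.0117), while its dim second probe set gave -0.06 (adjusted p = 0.137).

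HSPB2, a partner of HSPB3 in muscle, averaged 2.42 ± 0.06 in bovine cells and 3.08 ± 0.21 in ovine vehicle cells (SD, n = 5 each), so the bovine value was dim and the difference of -0.66 (adjusted p = 0.000542) is not a measured ratio of expression. HSPB3 was dim in both, at -0.03 (adjusted p = 0.0273). Its call was lost without bovine replicate 1 or 2 or vehicle replicate 2 or 4 (adjusted p up to 0.0644) and with the replicate block (adjusted p = 0.141). Centring the arrays turned it to 0.0020, and the second quantile normalisation gave an adjusted p of 0.997. The related CRYAB, a small heat shock protein whose symbol lies outside the rule, averaged 3.36 ± 0.11 in bovine cells and 5.90 ± 0.28 in ovine vehicle cells (SD, n = 5 each), a difference of -2.53 (limma adjusted p = 6.82e-07).

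HSPBP1 read 4.99, 4.84, 5.26, 4.59 and 5.00 in bovine cells against 4.36, 4.05, 3.99, 4.10 and 3.81 in ovine vehicle cells. It was higher on all bovine arrays, by 0.88 ± 0.13 (SE; adjusted p = 0.000974).

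Of the DNAJA and DNAJB genes 4 of 9 were higher and 1 was lower in bovine cells, a share near the 49.2% of all genes that were called. DNAJA1 read 9.12, 8.84, 9.0, 8.97 and 8.88 in bovine cells against 7.83, 7.70, 7.92, 8.08 and 8.21 in ovine vehicle cells, without overlap, a difference of 1.01 ± 0.097 (SE; adjusted p = 4.74e-05) or 2.01-fold. DNAJB6 read 9.21, 9.30, 9.39, 9.25 and 9.22 in bovine cells against 8.77, 8.90, 8.94, 9.0 and 9.05 in ovine vehicle cells, a difference of 0.34 ± 0.055 (SE; adjusted p = 0.00136). Both were thus higher on every bovine array, DNAJB6 by much less. DNAJB5 averaged 3.62 ± 0.21 in bovine cells against a dim 2.90 ± 0.26 in ovine vehicle cells (SD, n = 5 each; difference 0.72, adjusted p = 0.0045). Its dim second probe set gave -0.04 (adjusted p = 0.0989, and 0.0401 with all 15 arrays in 1 fit).

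DNAJB1 was higher in both of its probe sets. The brightest overlapped and gave 0.20 ± 0.068 (SE; adjusted p = 0.0432). Its call was lost without any 1 of 8 of the 10 arrays, all but bovine replicate 5 and vehicle replicate 3 (adjusted p up to 0.0846), and with the second quantile normalisation (adjusted p = 0.321), array weights (adjusted p = 0.0556) and the replicate block (adjusted p = 0.0704). The second read 6.03, 5.99, 6.25, 5.97 and 6.15 in bovine cells against 5.59, 5.49, 5.59, 5.64 and 5.73 in ovine vehicle cells, higher on every bovine array by 0.47 ± 0.062 (SE; adjusted p = 0.000383). DNAJB11 was lower by a small step (-0.07, adjusted p = 0.0209), which was lost with arrays centred (adjusted p = 0.272), the second quantile normalisation (adjusted p = 0.0992), the trended robust variance (adjusted p = 0.204) and the replicate block (adjusted p = 0.0739). Testing without the dim probe sets also ended it (adjusted p = 0.187). DNAJA3 differed by 0.25 (adjusted p = 0.309).

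Of 15 DNAJC genes, DNAJC7 and DNAJC11 were higher and DNAJC6, DNAJC10, DNAJC13 and DNAJC24 lower in bovine cells, or 40% called against those 49.2%. DNAJC13, which remodels endosomal coats with Hsc70, read 8.71, 8.48, 8.64, 8.72 and 8.60 in bovine cells against 8.96, 9.22, 9.29, 9.36 and 9.24 in ovine vehicle cells, lower throughout, with a difference of -0.58 ± 0.077 (SE; adjusted p = 0.00038). DNAJC24, which takes part in making diphthamide on elongation factor EEF2, read 5.02, 4.80, 5.06, 5.15 and 5.06 in bovine cells against 5.41, 6.13, 5.73, 5.68 and 6.38 in ovine vehicle cells. It was lower on every bovine array, by 0.85 log2 units (-0.85 ± 0.17, SE; adjusted p = 0.00517), and a second probe set gave -1.05 (adjusted p = 9.44e-05). The last gave -0.11 (adjusted p = 0.0519) and was called without vehicle replicate 2, 3 or 5 (adjusted p down to 0.038).

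DNAJC11 read 6.78, 7.04, 6.75, 6.95 and 6.81 in bovine cells against 6.61, 6.62, 6.62, 6.57 and 6.69 in ovine vehicle cells, higher throughout by 0.25 ± 0.056 (SE; adjusted p = 0.00924, and 0.117 with the second quantile normalisation). DNAJC7 was higher by 0.21 (adjusted p = 0.0244) and 0.60 (adjusted p = 0.000724) in its 2 probe sets, and the call of the brighter was lost without bovine replicate 1 or 3 or vehicle replicate 4 (adjusted p up to 0.055) and with the second quantile normalisation (adjusted p = 0.0955). DNAJC10 was lower by 0.36 log2 units (-0.36, adjusted p = 0.0119) with overlapping arrays, and its other 2 probe sets were not called. The dimmest was called at -0.06 (adjusted p = 0.0146) without vehicle replicate 4 and at -0.09 (adjusted p = 0.0364) with array weights. DNAJC6, the neuronal auxilin, was dim in both (-0.06, adjusted p = 0.0459), and its call was lost without any 1 of 8 of the 10 arrays, all but vehicle replicates 1 and 3 (adjusted p up to 0.0909), and with arrays centred (adjusted p = 0.29), the second quantile normalisation (adjusted p = 0.172) and the replicate block (adjusted p = 0.132). DNAJC12 differed by 0.22 (adjusted p = 0.286), and by 0.37 (adjusted p = 0.0231) without bovine replicate 2, which read 4.97. DNAJC17 differed by 0.18 (adjusted p = 0.0574, and 0.0296 with all 15 arrays in 1 fit), DNAJC18 by 0.06, DNAJC19 by 0.03, DNAJC22 by 0.05 and DNAJC5 by -0.03. None of the 7 genes not described one by one was called, and they lay between -0.19 and 0.10. With all 15 arrays in 1 fit, DNAJB2 among them was called at -0.19 (adjusted p = 0.027).

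**Figure D4:**
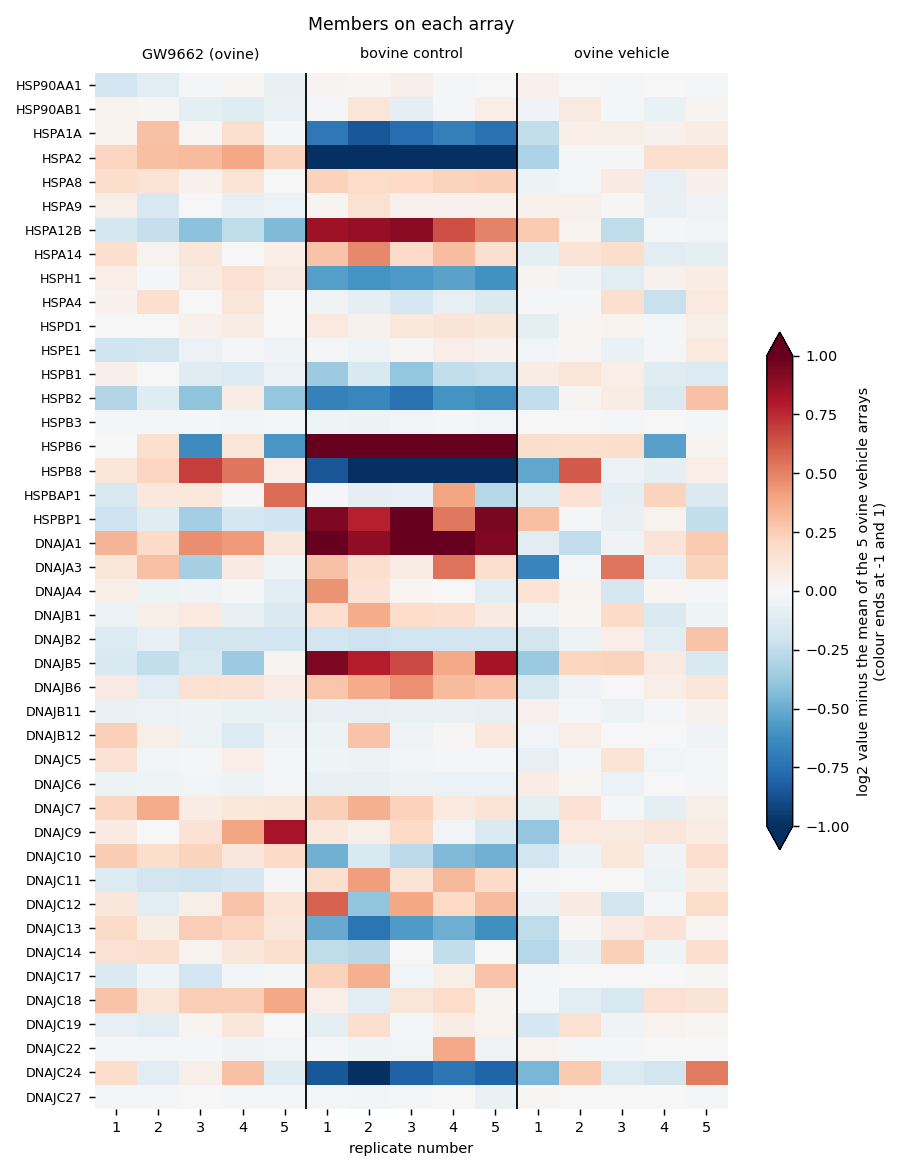
Value of each of the 43 genes (brightest probe set) on each of the 15 arrays, as the log2 value minus the mean of the 5 ovine vehicle arrays, with GW9662, bovine control and ovine vehicle arrays side by side. Colour runs from -1 (blue) to 1 (red). The 5 bovine arrays share strong colours for HSPA2, HSPB6, HSPB8 and DNAJA1, while the averages of the GW9662 arrays lie between -0.30 and 0.32.

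Of the 10 genes commonly raised by HSF1, HSPA8, HSPD1, DNAJA1 and DNAJB1 were higher and HSPA1A, HSPH1 and HSPB1 lower in bovine cells by brightest probe set, with the direction of HSPA1A uncertain as above. That was 70% called, against 49.2% of all genes (21.9% higher and 27.4% lower). The calls of HSPD1 and DNAJB1 were lost in several settings, as given above. HSF1 differed by 0.22 (adjusted p = 0.0813). Of the 6 mitochondrial members 2 were higher, HSPD1 and DNAJC11, and none was lower, or 33.3% called against those 49.2%. Of the 42 further pathway genes 9 were higher and 8 lower, where 21.9% of all genes were higher and 27.4% lower. Those higher included the Hsp90 co-chaperones FKBP4 (0.58 ± 0.085, SE; adjusted p = 0.000691), CDC37 (0.44 ± 0.11, SE; adjusted p = 0.0145) and, by its brightest probe set, PPID (0.39 ± 0.039, SE; adjusted p = 5.65e-05). The other PPID probe set was called the other way, at -0.28 (adjusted p = 0.000139), so the direction for PPID is uncertain. BAG2, which restrains the ubiquitin ligase STUB1, was higher by 0.59 (adjusted p = 0.000805) in its brightest probe set, while the other gave 0.09 with overlapping arrays (adjusted p = 0.638). BAG1 and BAG3, exchange factors of Hsp70, differed by -0.38 and -0.18 (adjusted p = 7.99e-05 and 0.0268). The TRiC subunits moved apart, with CCT6A at 0.27 (adjusted p = 7.96e-05) and CCT8 at -0.25 (adjusted p = 0.00534). Of the 4 ER genes outside the rule DNAJB9 and DNAJC3 were lower, both by 0.38 log2 units (-0.38, adjusted p = 0.00395 and 0.0157).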

How the data were processed

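RNA of 15 samples was measured on 15 Affymetrix arrays. The deposited values are log2 expression values from RMA, as stated in the submitters' processing notes without a version. RMA subtracts background, brings the arrays to a common distribution and combines the probes of a set into 1 value, so a shift shared by most genes is removed. Leaving out 112 control probe sets left 24016 to test. In the platform annotation, which can be old, 13292 of them had 1 symbol, 86 several and 10638 none, and members were matched by symbol.

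Limma 3.58.1 (lmFit, eBayes), run in R 4.3.3, fitted each comparison on its own 10 arrays. Unless another setting is named, every adjusted p comes from such a fit, by the Benjamini-Hochberg method over all 24016 probe sets. An adjusted p given with an alternative setting comes from the fit of that setting. Without dim probe sets, 12988 were tested for GW9662 and 13038 for bovine control. The fits were tested on simulated data. A gene is represented by its brightest probe set over 15 arrays, and other probe sets are given for the genes named where they were called differently. Described one by one were a fixed list of members, the 6 per direction of smallest p for GW9662, and up to 10 per direction of largest called difference without overlap for bovine cells; DNAJC10 and CRYAB are also given. Members and lists were chosen with earlier results of these data known. Replicate numbers did not pair the samples.

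Alternatives were array centring, a second quantile normalisation, leaving out dim probe sets, a trended robust variance, array weights, all 15 arrays in 1 fit, a replicate block, the brightest probe set only, leaving out each array, and the 3′ minus 5′ covariate.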

Additional observations from a re-analysis of the deposited data

Results flagged for a closer look

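In 108 groups of 5 arrays over 36 genes, 7 had 1 array far from the other 4. Chance alone gives about 1 such group in 20. In HSPA1A the array was ovine vehicle replicate 1, at 11.3 against 11.62 to 11.65 on the others. In HSPA9 it was bovine control replicate 2, at 9.88 against 9.75 to 9.77. HSPB6 had 2, bovine control replicate 4 at 5.20 against 5.54 to 5.65, and ovine vehicle replicate 4 at 3.58 against 4.15 to 4.30. In HSPB8 bovine control replicate 1 read 3.78 against 3.48 to 3.50. DNAJC22, dim in every group, had 2, bovine control replicate 4 at 2.88 against 2.46 to 2.50 and ovine vehicle replicate 1 at 2.54 against 2.49 to 2.50. The bovine calls of HSPA1A, HSPB6 and HSPB8 held when each array was left out in turn.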

How the results depend on the processing

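No member was called with GW9662 except 2 (DNAJC7 and HSPA14) with all 15 arrays in 1 fit, and the median member difference was 0.065 with arrays centred. The count over all probe sets for GW9662, 44, depended on the setting: 67 with arrays centred, 76 without dim probe sets, 26 with a trended robust variance, 237 with all 15 arrays, 0 with the replicate block, 0 with the 3′ minus 5′ covariate, and 9 to 62 with 1 array left out. For bovine control, the count over all probe sets, 10860 (3740 higher, 7120 lower), was 6455 with arrays centred (3740 and 2715), 6802 with the second quantile normalisation (3224 and 3578), 6586 without dim probe sets, 5396 with the replicate block and 1601 with the covariate. Member calls in bovine cells, 34 (50% against 45.2% of all probe sets), were 7 with the covariate (10.3% against 6.67%). They were 27 to 37 in the other settings on all probe sets of the members. The lowest count, 27, came with the replicate block (39.7% against 22.5%) and without bovine replicate 1 (39.7% against 30.5%). The highest, 37, came with all 15 arrays in 1 fit (54.4% against 55.5%). The covariate turned HSPD1 to -0.0090, DNAJC6 to 0.066, DNAJB11 to 0.034 and the second HSPA9 probe set to 0.049, and centring turned HSPB3 to 0.0020. The cause was not tested.

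Arrays with the same replicate number deviated together little (correlations of -0.194 to 0.172), and none correlated best with its own number, so the replicate block is only an alternative. With 5 arrays per group and no signal over background, dim members have no measured level.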
